A study of Rattus norvegicus with 6 samples.

Results

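The genes described here encode parts of elastic fibres and of the microfibrils that scaffold them, and the enzyme that cross-links them: Mfap4, Eln, Fbn1 and Lox. They were taken as every probe set whose annotation carries 1 of these symbols alone, which gave 6 probe sets for 4 genes, of 15923 probe sets and 10411 named genes on the array. Mfap4 and Eln had 1 probe set each, and Fbn1 and Lox had 2 each. All 6 passed the filter on dim probe sets described below. The group was proposed with the difference of Mfap4 between the muscles of each animal already known, so the differences of the members are a description and carry no test of their own.

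Expression was measured in the tibialis anterior, a fast muscle at the front of the lower leg, of 3 male Wistar rats aged 8 weeks. In the ipsilateral leg the peroneal nerve, which supplies this muscle, had been cut and its end attached to the biceps femoris, a thigh muscle. After 4 weeks its stumps were joined to each other, and survival was 8 weeks, read here as counted from that repair. The contralateral muscle is the other leg of the same animal, so it shared the anaesthesia with ketamine and xylazine and does not stand for an animal without surgery. Titles with the abbreviation Cont were read as contralateral. Each muscle gave 1 library, 6 in all and 3 per group, from animals numbered 4, 5 and 6.

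Elastic fibres give tissues stretch and recoil. Cells secrete tropoelastin, the soluble product of Eln, which is laid down on microfibrils made largely of fibrillin-1, the product of Fbn1. Lysyl oxidase, encoded by Lox, oxidises lysine side chains of elastin and of fibrillar collagens, and the products react to form stable cross-links. Mfap4 encodes a microfibril-associated glycoprotein that binds elastin and collagen. In skeletal muscle such fibres lie in the connective tissue sheaths around fibres and bundles and in the walls of arteries.

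The arrays were alike in brightness, with median intensities of 60.2 to 66.6, and their number limits the precision. Each marker of muscle fibres was bright in every library, with all 12 of 12 above the filter, as the tissue label says. As a measure of RNA integrity and labelling, the 3' actin control probe set was divided by the middle one. This gave 2.77 for the contralateral library of animal 4, 2.87 for the ipsilateral library of animal 6, and 1.36 to 1.68 for the other 4. Divided by the 5' actin probe set instead, it was 2.06 for the ipsilateral library of animal 6 and 1.31 to 1.55 for the other 5, and the 3' to 5' ratio of Gapdh was 1.02 to 1.16. Over all 9519 tested probe sets, limma's paired fit called 0 (0%) at a Benjamini-Hochberg adjusted p under 0.05 and 605 (6.36%) at an unadjusted p under 0.05, 340 of them higher ipsilaterally (3.57%) and 265 lower (2.78%). None of the 6 member probe sets was therefore called at the adjusted threshold. The counts differed with the animal left out: without animal 4 there were 241 adjusted and 1491 unadjusted calls, without animal 5 there were 0 and 223, and without animal 6 there were 0 and 389.

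Mfap4 had the largest difference of the 4 genes. Its probe set, 1371700_at, had intensities of 225.7, 156.3 and 166.4 contralaterally and 350.3, 716 and 568.6 ipsilaterally in animals 4, 5 and 6. Every ipsilateral library lay above every contralateral one, and animal 4 had both the brightest contralateral and the dimmest ipsilateral value. The group means were 183 ± 37.5 and 545 ± 184 (SD, n = 3), a ratio of 2.98. On the log2 scale, after a pseudocount of 15.8 that makes differences of dim genes smaller, the ipsilateral value exceeded the contralateral one by 0.60, 2.09 and 1.68 in the same order. The fitted difference was 1.46 (SE 0.25, n = 3 pairs), and 99.9% of tested probe sets had a lower one. Without animal 4 it was 1.88 (SE 0.17). That limma fit, which has 1 residual degree of freedom, called 241 of 9519 probe sets, Mfap4 among them at an adjusted p of 0.000256. No support is drawn from that call, since Mfap4 was chosen with its difference known. The adjusted p was at least 0.229 in the other 11 alternatives. These are bulk samples, in which more cells of a type and more RNA per cell cannot be told apart.

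Eln, the elastin gene, was higher in the ipsilateral muscle by a smaller and more even amount. Probe set 1388111_at had 73.7, 64.3 and 103.2 contralaterally and 106.2, 133.8 and 158.8 ipsilaterally in animals 4, 5 and 6. The groups did not overlap, but contralateral 6 lay just under ipsilateral 4. Means were 80.4 ± 20.3 and 133 ± 26.3, a ratio of 1.65. The log2 differences were 0.45, 0.90 and 0.55, with a fitted value of 0.63 (SE 0.16).

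Lox, the cross-linking enzyme, was also higher ipsilaterally in each animal, with animal 5 apart from the others. The brighter probe set, 1368171_at, had 130.4, 86.6 and 104.4 contralaterally and 174.1, 260.6 and 145.3 ipsilaterally in animals 4, 5 and 6. The groups did not overlap on this probe set. Its log2 differences were 0.38, 1.43 and 0.42, and the fitted difference was 0.74 (SE 0.22). Without animal 5 that value was 0.40.

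The dimmer Lox probe set, 1368172_a_at, had 46.4, 27.9 and 29.3 contralaterally and 65.5, 78.7 and 38.9 ipsilaterally. Here the groups overlapped, since ipsilateral 6 lay under contralateral 4. The log2 differences of 0.39, 1.11 and 0.28 gave a fitted value of 0.59 (SE 0.20). The contralateral mean of this probe set was 34.5 ± 10.3, under the intensity of 42.4 that the filter corresponds to, so it passed the filter through its ipsilateral values. Over the 6 libraries the log2 values of the Lox probe sets correlated at 0.95.

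Fbn1, the microfibril backbone, was bright in all 6 libraries and had no common direction. Probe set 1368829_at had 785, 1086.6 and 1075.2 contralaterally and 1060.1, 802.9 and 1047.2 ipsilaterally in animals 4, 5 and 6. The groups overlapped over almost their whole range. The log2 differences were 0.43, -0.43 and -0.038, with a fitted value of -0.014 (SE 0.18, 95% confidence interval -0.41 to 0.39).

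The second Fbn1 probe set, 1387351_at, had 413, 550.2 and 423.2 contralaterally and 477.8, 350.1 and 313.7 ipsilaterally. It overlapped as well, and its differences of 0.20, -0.63 and -0.41 had a fitted value of -0.28 (SE 0.19, 95% confidence interval -0.70 to 0.14). It was -0.52 without animal 4 and -0.11 without animal 5, and the brighter probe set gave -0.23 and 0.19 in those fits. The sign per animal was the same on both Fbn1 probe sets, although their log2 values correlated at only 0.37 over the 6 libraries.

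**Figure D1:**
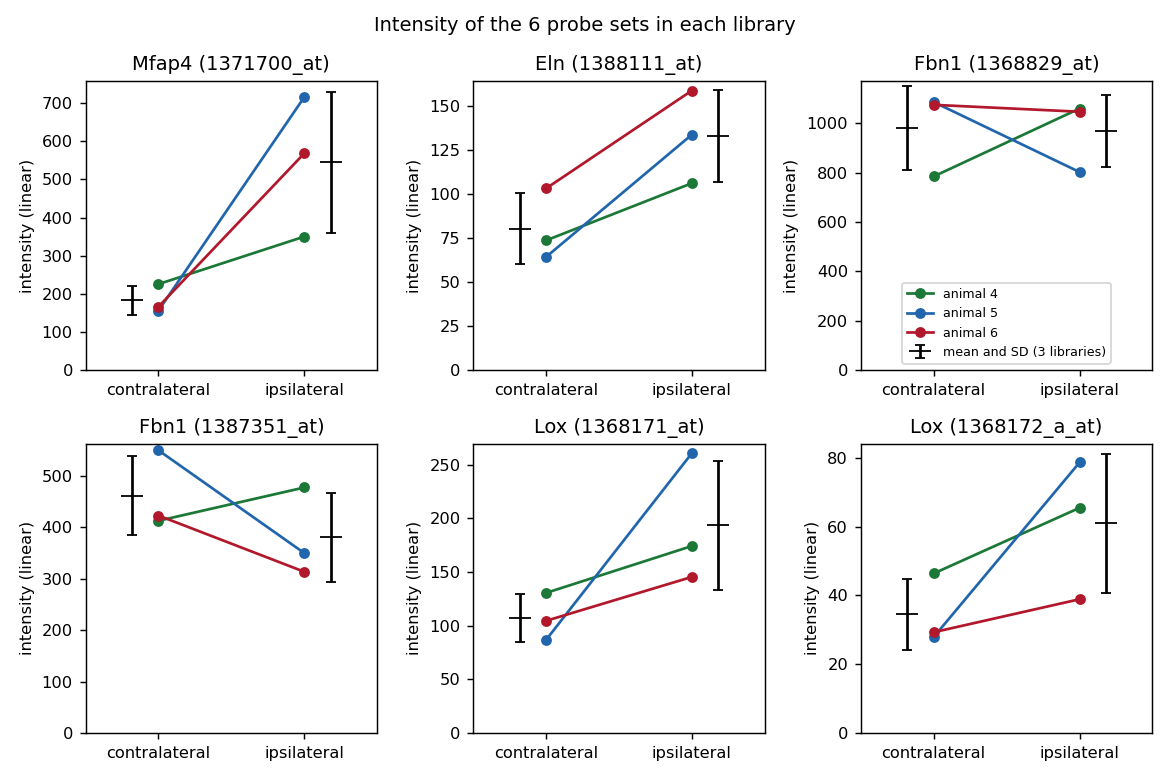
Intensity on a linear scale (vertical axes, each starting at 0) of the 6 member probe sets in the contralateral and ipsilateral muscle, with a line for each animal and the mean and SD of 3 libraries in black. The lines of Mfap4, Eln and both Lox probe sets run upward in all 3 animals, while those of Fbn1 run upward in animal 4 and downward in animals 5 and 6.

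Counted together, 4 of the 6 member probe sets were higher in all 3 animals, which held for 12.3% of tested probe sets, and 3 were without overlap and higher ipsilaterally, which held for 4.74%. None was lower in all 3 animals or without overlap and lower, against 15.1% and 5.78% of tested probe sets. No support is drawn from these counts, since the contrast was in view when the genes were chosen. The median of the 6 fitted log2 differences was 0.61, beside -0.016 over all tested probe sets.

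Animal 5 stood at one end of nearly every comparison. Its contralateral muscle had the lowest intensity of the 3 on Mfap4, Eln and both Lox probe sets and the highest on both Fbn1 probe sets. Its ipsilateral muscle had the highest intensity on Mfap4 and both Lox probe sets, whereas on Eln the highest was animal 6. The largest log2 differences of Mfap4, Eln and Lox and the most negative ones of Fbn1 were all in animal 5. On Mfap4, both Lox probe sets and the brighter Fbn1 probe set, both legs of that animal were extreme. On Eln and the dimmer Fbn1 probe set only its contralateral leg was. Its ipsilateral values there, 133.8 and 350.1, lay between those of animals 4 and 6. Its actin ratios, 1.54 and 1.53, lay within the range of the other libraries.

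**Figure D2:**
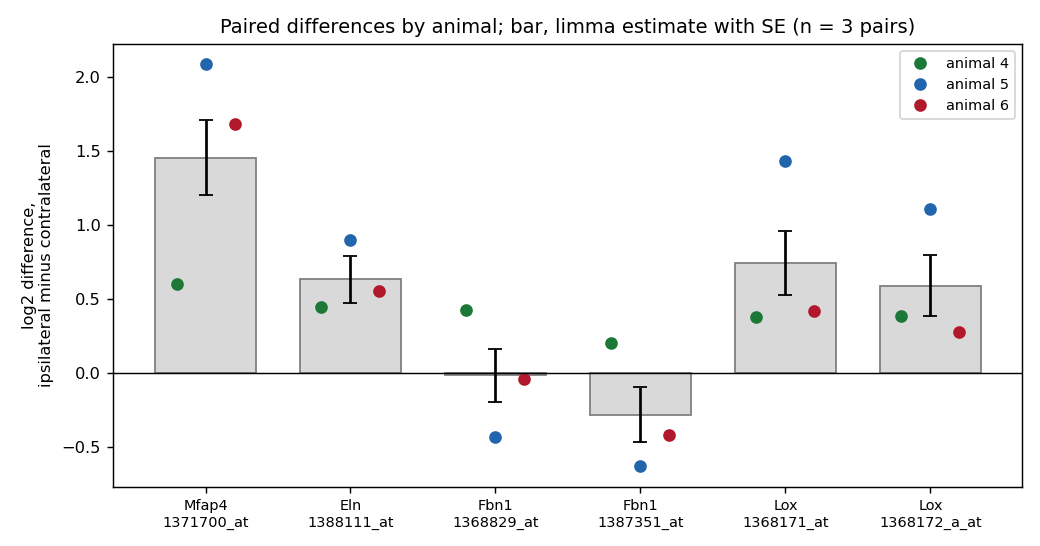
Log2 difference, ipsilateral minus contralateral (vertical axis), for the 6 member probe sets. Points are animals and bars are limma's estimate with its SE over 3 pairs. Mfap4 has the highest bar, 1.46, and the widest gap between animal 4 (0.60) and animal 5 (2.09), and the Fbn1 bars lie at -0.014 and -0.28.

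Differences between members within an animal were smallest in animal 4. There the log2 difference of Mfap4 exceeded that of Eln by 0.15, that of the brighter Lox probe set by 0.22 and that of the brighter Fbn1 probe set by 0.17. In animal 5 the same gaps were 1.19, 0.66 and 2.52, and in animal 6 they were 1.13, 1.26 and 1.72. Mfap4 thus had the larger difference in 3 of 3 animals against each of the others, by a mean of 0.82 ± 0.58 over Eln, 0.71 ± 0.52 over Lox and 1.47 ± 1.19 over Fbn1 (SD, n = 3). With 3 pairs, an exact two-sided sign-flip test cannot give a p under 0.25, so no test was made of these gaps. Mfap4 was also the member whose difference was known when the group was proposed, so no support is drawn from this order. Eln and the brighter Lox probe set had no fixed order: Eln had the larger difference by 0.070 in animal 4 and 0.13 in animal 6, and the smaller one by 0.53 in animal 5.

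**Figure D3:**
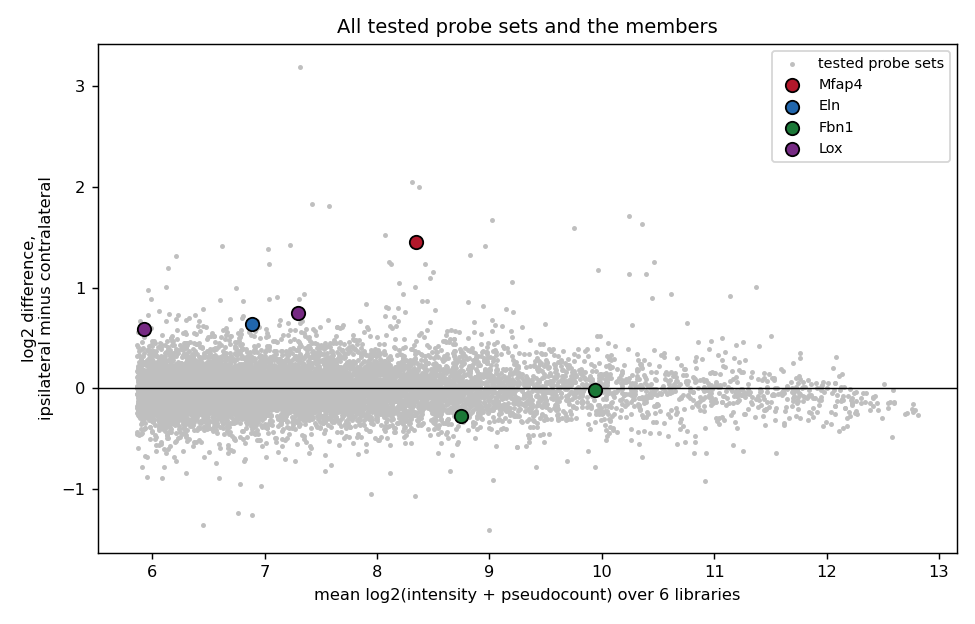
Log2 difference, ipsilateral minus contralateral (vertical axis), against the mean log2(intensity + pseudocount) over 6 libraries (horizontal axis), for 9519 tested probe sets in grey and the 6 member probe sets in colour. Mfap4 lies above nearly all probe sets of like brightness, Eln and Lox at the upper edge of the cloud, and Fbn1 within it.

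The wider group of structural genes of elastic fibres and microfibrils had a median difference near 0. Of a list of 22 genes, 18 were on the array and 14 were tested, members included. With the brightest probe set of each gene, 0 passed the adjusted threshold, 3 were higher in all 3 animals, 3 were lower in all 3 and 8 were mixed. Beside these counts, and those of the lists below, stand 12.3% higher and 15.1% lower in all 3 animals over all tested probe sets. The list's median log2 difference was 0.015, close to that of all tested probe sets, and per animal it was 0.042, -0.034 and 0.048. Without animal 5 it was 0.12, and without animal 4 the counts were 5 higher and 6 lower in both remaining animals. A gene higher or lower in all 3 animals stays so when an animal is dropped. Counts over the remaining animals, here and for the lists below, can therefore only stay or rise. No share over all tested probe sets was made for them, so no dependence on an animal is read from these counts. The 3 that were higher in all 3 animals were Mfap4, Eln and Bgn, and the 3 that were lower were Dcn, Fbln5 and Mfap5.

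Bgn encodes biglycan, a small proteoglycan that binds collagen and tropoelastin. It had 256.1, 208.8 and 195.2 contralaterally and 279.1, 482.8 and 409 ipsilaterally in animals 4, 5 and 6. The fitted log2 difference was 0.76 (SE 0.21). The groups did not overlap, and the value was 0.12 in animal 4 against 1.15 and 1.01 in the others. Dcn, the related proteoglycan decorin, lay the other way, at 3005 ± 34.4 contralaterally and 2608 ± 262 ipsilaterally, without overlap and with a log2 difference of -0.21 (SE 0.12).

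The microfibril glycoproteins of the MAGP family, which bind fibrillin, overlapped between the legs. Mfap5 was at 895 ± 82.9 and 798 ± 151, a difference of -0.17 (SE 0.14), and was lower in all 3 animals. Mfap2 was at 71.0 ± 6.97 and 72.7 ± 6.63, a difference of 0.029 (SE 0.16). The tested genes of the fibulin family, members of which help assemble elastin on microfibrils, overlapped too. Their differences were -0.12 (SE 0.15) for Fbln5, which was lower in all 3 animals, 0.0017 (SE 0.15) for Fbln2, 0.13 (SE 0.17) for Fbln1 and -0.18 (SE 0.20) for Efemp1, which was at 0.37, -0.59 and -0.32 in animals 4, 5 and 6. Mmrn2, an endothelial matrix glycoprotein related to the emilins, differed by 0.18 (SE 0.18), with -0.080 in animal 4.

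The list of cross-linking and collagen-modifying enzymes had 10 tested genes of 16, again with 0 past the adjusted threshold. Its median log2 difference was 0.013, and the medians of animals 4, 5 and 6 were -0.15, 0.24 and 0.081. Without animal 4 the list's median was 0.16, and 5 genes were higher in both animals kept. The median was -0.034 without animal 5, and -0.089 with the mean of a gene's probe sets. The 2 that were higher in all 3 animals were Lox and Bmp1, the protease that cuts the propeptide off lysyl oxidase and procollagens. Bmp1 was at 77.8 ± 8.65 contralaterally and 107 ± 2.39 ipsilaterally, a difference of 0.40 (SE 0.15) without overlap, with 0.53, 0.40 and 0.27 in animals 4, 5 and 6. Its other probe set, at 4.90 ± 1.77 and 4.17 ± 1.47, was too dim to be tested.

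Loxl1, a lysyl oxidase relative that acts on elastin, followed Lox in animals 5 and 6 but not in animal 4, with -0.29, 0.67 and 0.44 and a fitted value of 0.27 (SE 0.20). Plod2, a lysyl hydroxylase of collagen telopeptides, had the same pattern of signs, at -0.19, 0.61 and 0.36. The collagen prolyl hydroxylases P4ha1 and P4ha2 were lower in all 3 animals, by fitted values of -0.31 (SE 0.16) and -0.27 (SE 0.15). A dimmer probe set of P4ha2, which was not tested, gave 0.023.

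Microfibrils also hold latent TGF-beta in the matrix through the LTBP proteins. Of 20 genes of this kind, 13 were tested, 0 passed the adjusted threshold, 4 were higher and 2 lower in all 3 animals, and the median was 0.10. Without animal 4 the median was 0.046, and 5 were lower in both remaining animals. Without animal 6 the median was 0.16. Ltbp1, which anchors the latent growth factor, had 109.7, 69.4 and 107.3 contralaterally and 113.3, 159.9 and 153.9 ipsilaterally. Its groups did not overlap, with a difference of 0.52 (SE 0.20) that was 0.041 in animal 4. Tgfb2, a TGF-beta ligand, was higher in all 3 animals without overlap on both of its probe sets, by 0.36 (SE 0.17) on the brighter and 0.52 (SE 0.16) on the dimmer one. Ltbp2 differed by 0.35 (SE 0.23), with -0.35 in animal 4, Ltbp4, which also takes part in elastic fibre assembly, by -0.014 (SE 0.17) and Bmp7, a growth factor that binds fibrillin, by -0.25 (SE 0.16).

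Elastin receptors and integrins (7 tested of 11 genes) had a median of -0.17, with 0 higher and 2 lower in all 3 animals. The median was -0.054 without animal 5, and 4 genes were lower in both remaining animals without animal 4. Lgals3, a galectin abundant in macrophages, was at 337 ± 22.7 and 262 ± 40.8, a difference of -0.36 (SE 0.15) without overlap. The integrin subunit Itgb5 differed by -0.17 (SE 0.15), the elastin receptor component Ctsa by -0.22 (SE 0.17), and the integrin subunit Itgb1 by 0.19 (SE 0.17). The dimmer probe set of Itgb5 gave -0.053 (SE 0.17), with 0.23 in animal 4, and that of Itgb1 gave 0.22 (SE 0.17). The summed intensity of 9 macrophage markers, all above the filter, had ipsilateral over contralateral ratios of 1.02, 0.656 and 0.761 in animals 4, 5 and 6. Their part in the Lgals3 values was not tested.

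Among elastases and their inhibitors, 10 of 18 genes were tested, 0 passed the adjusted threshold, 3 were higher and 2 lower in all 3 animals, and the median was -0.055. That median was -0.14 without animal 4, when 6 genes were lower in both remaining animals, -0.032 without animal 5 and 0.059 without animal 6. The cathepsin inhibitor Cst3 differed by 0.30 (SE 0.12), and the metalloproteinase inhibitor Timp3 by 0.35 (SE 0.16). Dimmer probe sets of Timp3 gave 0.30 (SE 0.15) and 0.26 (SE 0.19), the latter with -0.11 in animal 6. Another, too dim to be tested, gave -0.26. The other metalloproteinase inhibitor named here, Timp1, differed by -0.26 (SE 0.15), and Slpi, a leukocyte elastase inhibitor, by -0.13 (SE 0.15), each without overlap.

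The fibrillar collagens, the other substrates of lysyl oxidase, had no common direction. Of 5 tested genes, 0 were higher and 0 were lower in all 3 animals, and the median was 0.0090. Dropping animal 4 gave a median of -0.098 and dropping animal 6 gave -0.046. Dropping animal 5 gave 0.094, with 3 genes higher in both remaining animals. Col1a1 differed by 0.22 (SE 0.20), with 0.88 in animal 4 and -0.14 and -0.078 in the others. Its dimmer probe set had the same fitted value, 0.22, with 0.59, 0.22 and -0.13. Col1a2 differed by -0.15 (SE 0.17), while its dimmer probe set gave 0.14 (SE 0.14) and was higher in all 3 animals. The values were -0.048 (SE 0.13) for Col3a1, 0.041 (SE 0.16) for Col5a1 and 0.0090 (SE 0.15) for Col5a2, and the dimmer probe sets of the last pair gave -0.056 and 0.22. The Col1a1 and Fbn1 probe sets all had a positive sign in animal 4, which was the animal with the smallest Mfap4 difference. That sign was not particular to them. The tested probe sets of Col1a2, Col3a1 and Col5a1 and the brighter one of Col5a2 had it too, while the dimmer Col5a2 probe set had -0.12.

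**Figure D4:**
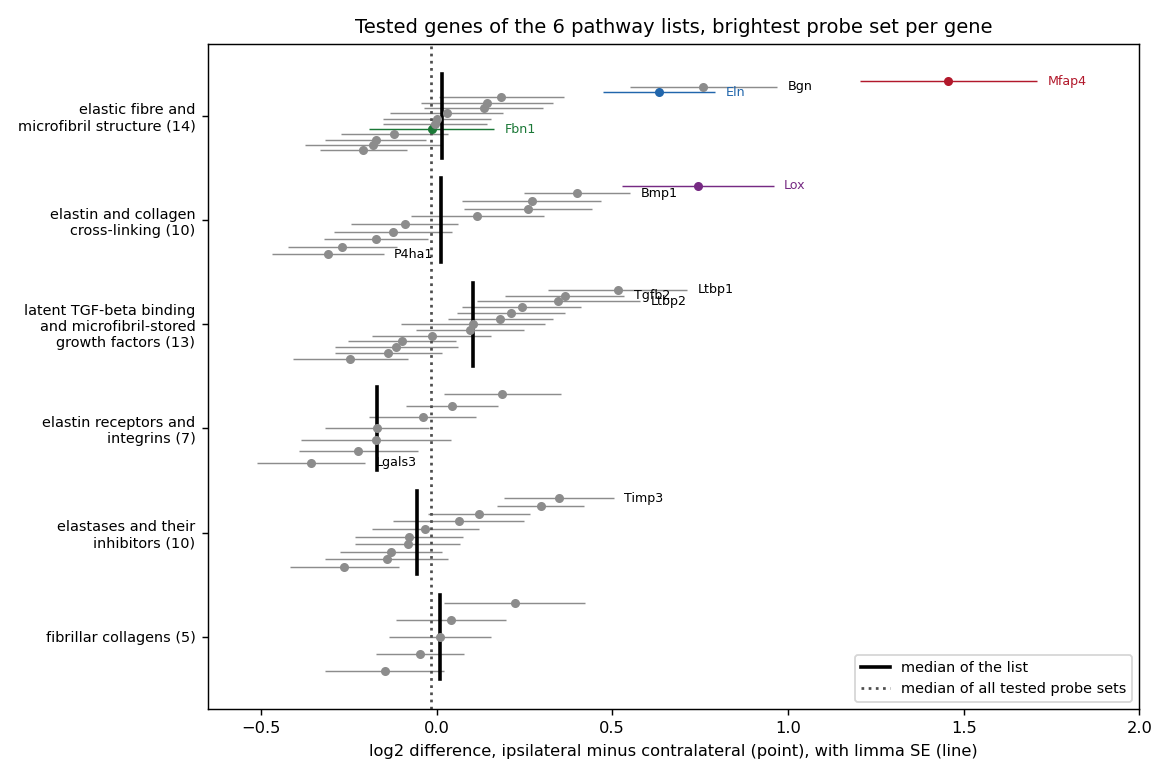
Log2 difference, ipsilateral minus contralateral (horizontal axis), of the tested genes of the 6 pathway lists, with the number tested in parentheses, a point per gene (brightest probe set) and limma's SE as a line. Members are in colour, and genes beyond 0.3 in size are named. Black bars, the list medians, lie between -0.17 and 0.10, near the dotted median of all tested probe sets, and Mfap4, Eln, Bgn and Lox lie to the right of the rest.

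Markers of the cells that make or surround elastic fibres were summed in each library. The fibroblast markers, 12 of 13 on the array above the filter, summed to between 13751 and 14785 contralaterally and between 13782 and 15964 ipsilaterally. Their ratio was 0.971, 1.11 and 1.08 in animals 4, 5 and 6. Smooth muscle and pericyte markers, 9 of 13 above the filter, had ratios of 1.07, 1.09 and 1.04. Of these, Cnn1, Cspg4, Lmod1 and Pdgfrb were below the filter. Synpo2 is by far the brightest marker in this sum, at 2133 ± 15.2 contralaterally, and was higher in all 3 animals. The whole sum was 3262 to 3748 contralaterally, so its ratios largely follow Synpo2 and do not describe the other markers. The 9 tested ones included 2 higher in all 3 animals and 5 mixed. Another 2 were lower in all 3, Myh11 by a log2 difference of -0.24 (SE 0.15) and Tagln by -0.29 (SE 0.15). The Mfap4 ratios in the same animals were 1.55, 4.58 and 3.42. Gsn and Dcn are the brightest markers in the fibroblast sum, and its single markers differed. S100a4 had ratios of 0.971, 5.77 and 2.15, and Lum, lumican, had 1.02, 1.66 and 1.33 without overlap, while Fn1, fibronectin, had 1.18, 0.498 and 0.71.

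The summed tendon markers were higher ipsilaterally, as Mfap4, Eln and Lox were and Fbn1 was not. Their sum, over 6 genes of which all but Chad were above the filter, ran from 532 to 733 contralaterally and from 1021 to 1522 ipsilaterally, without overlap, with ratios of 2.08, 1.77 and 2.12. Of the 5 tested, 3 were higher in all 3 animals, which held for 12.3% of tested probe sets, and the median of the 5 was 0.68. Thbs4, a thrombospondin of tendon and muscle, differed by 1.23 (SE 0.22) and Tnmd, tenomodulin, by 0.68 (SE 0.15). Thbs4 had ratios of 1.54, 2.56 and 3.74 and Tnmd of 1.81, 1.56 and 1.73 in animals 4, 5 and 6. Fmod, fibromodulin, had 2.85, 1.44 and 1.54. The brightest ipsilateral marker of the sum was Fmod in animal 4, at 621.1, and Thbs4 in animals 5 and 6, at 547.3 and 596.3. The similar ratios of the sum thus rest on different genes and do not describe an even rise of the markers. Comp and Col12a1 were mixed in direction, at log2 differences of 0.85, -0.25 and 0.41 and of 0.42, 0.32 and -0.12.

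The sum of 7 adipocyte markers had ratios of 1.37, 1.74 and 1.35. The 3 above the filter, Cfd, Fabp4 and Scd, were higher in all 3 animals. Lep, Lipe, Plin1 and Pparg were below it, and of these Pparg had log2 differences of -0.57, -0.25 and -0.60 and Lep was lower in all 3 animals. Endothelial markers had ratios of 1.05, 1.35 and 1.16, highest in animal 5. Schwann cell markers, 4 of 6 above the filter and Prx and Sox10 below it, had summed ratios of 1.19, 1.30 and 1.16. Pmp22, the brightest of them, differed by 0.40 (SE 0.15), and the myelin gene Mbp by -0.38 (SE 0.16), lower in all 3 animals. Muscle fibre markers had ratios of 0.90, 0.784 and 1.01. No marker of these 8 lists had a value of 0. The part of tendon, fat, vessel, nerve or fibre content in the values of the members was not tested.

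**Figure D5:**
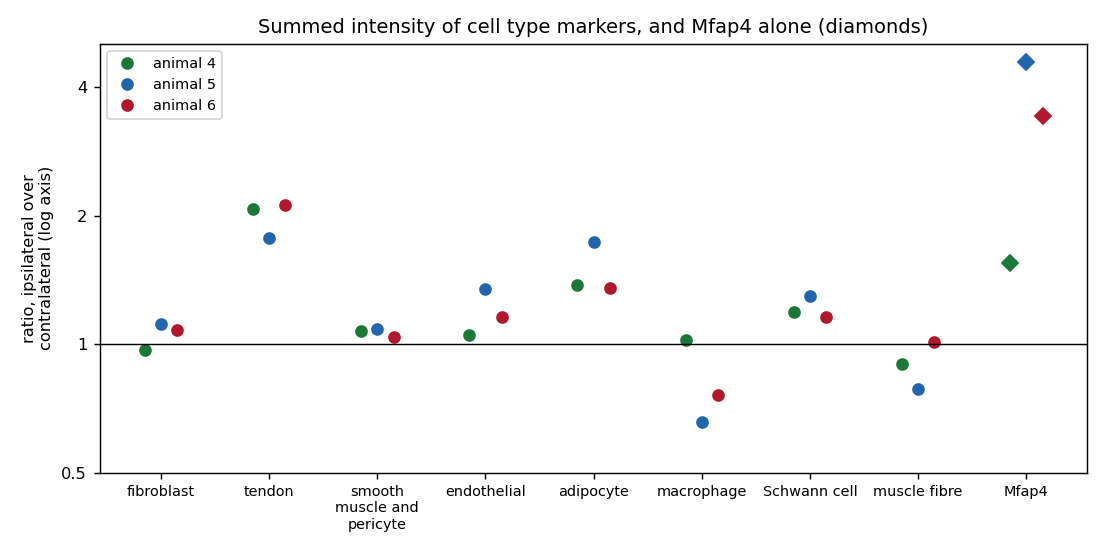
Ratio of ipsilateral over contralateral summed intensity (vertical log axis) for 8 lists of cell type markers, with a point per animal, and the same ratio of Mfap4 alone as diamonds. Tendon markers lie between 1.77 and 2.12 and fibroblast markers between 0.971 and 1.11, while Mfap4 lies at 1.55 in animal 4 and at 4.58 and 3.42 in animals 5 and 6.

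The genes whose log2 values over the 6 libraries were most like each member were picked by Pearson's correlation, as a description. The 6 points are muscles of 3 animals, so they share the legs and the animals, and 156 (1.64%) of the other tested probe sets correlated with Mfap4 at 0.9 or above. Nearest to Mfap4 were Atp1b4 (r = 0.994), Sncg (0.994), Csrp3 (0.989) and Bgn (0.984). All of these had a smaller difference in animal 4 than in animals 5 and 6, as Mfap4 had.

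Nearest to Eln were Sec62 (r = 0.990), Ptprd (0.989), Gdi2 (0.985) and Lnc215 (0.982). Nearest to Lox were Tfrc, the transferrin receptor (r = 0.996), Apln (0.995), Lsm3 (0.989) and Gipc2 (0.984). The Tfrc differences of 0.61, 2.06 and 0.63 had the same order of size as those of Lox, with animal 5 far above the others. Nearest to Fbn1 were Med1 (r = 0.992), Smn1 (0.970), Mfap2 (0.969) and Phf2 (0.969), and Mfap2 is the 1 gene of the microfibril list among them. By rank (Spearman's correlation) the likeness to Fbn1 was lower for most of these, at 0.60 for Med1, 0.77 for Smn1 and 0.60 for Mfap2. For Phf2 it was 1.

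Between members, the log2 values of Mfap4 correlated at 0.83 with Eln and at 0.89 with the brighter Lox probe set, and those of Eln and Lox at 0.64. Fbn1 correlated at -0.36 with Mfap4, 0.015 with Eln and -0.55 with Lox on its brighter probe set, and at -0.77, -0.84 and -0.57 on its dimmer one. These coefficients rest on the same 6 libraries and include the difference between legs.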

How the data were processed

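The deposited values are linear intensities, with 1 value for each probe set on each array. As the values themselves show, every array has about the same mean once 2% is trimmed at each end; the software behind them is not stated in the labels. Control probe sets (57) were dropped. Symbols came from a platform annotation that may be out of date, and 12748 of 12783 probe sets with 1 symbol matched by gene ID a gene table of assembly GRCr8. Values were taken as log2(intensity + 15.8), the 20th percentile. Array medians lay within 0.117 log2, so no normalization was added. Probe sets above the 40th percentile of mean log2 value (5.86) were tested with limma 3.58.1 in R 4.3.3 (lmFit, eBayes with trend), with animal as a fixed block.

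The pairing is that of 2 legs of 1 animal, and deviations from group means correlated at -0.041, 0.072 and 0.13 in animals 4, 5 and 6. On simulated data for this comparison, over 9519 probe sets, the fit called 38.8% of 1.5-fold, 97.0% of 2-fold and 100% of 4-fold changes of equal size in every animal, with 13 false calls among 9319. The simulated noise was normal and used the variances that this same fit had already shrunk. These shares therefore do not give the share of real changes that would be called here. Members, 6 pathway and 8 cell type lists were chosen with earlier results of these data known. Named genes were the members, up to 4 further tested genes of each pathway list with the smallest p, and the 4 nearest to each member by correlation. Loxl1, Mfap2, Ltbp4, Col5a2, the fibulins and the single cell type markers with values were added after their values were seen. Alternatives covered the block, pseudocount, normalization, filter, variance prior, probe set and each animal left out. Figures used matplotlib 3.10.9 in Python 3.11.15.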

Additional observations from a re-analysis of the deposited data

How the results depend on the processing

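With the block for animal left out, 0 probe sets passed the adjusted threshold and 564 the unadjusted one, against 0 and 605 with the pairing. Under the other pseudocounts, normalizations, filters and variance priors the count of adjusted calls was also 0. Leaving out 1 animal gave 0 to 241 adjusted and 223 to 1491 unadjusted calls. The fitted differences then ran from 1.14 to 1.88 for Mfap4, 0.50 to 0.73 for Eln, 0.40 to 0.93 and 0.33 to 0.75 for the Lox probe sets, and -0.23 to 0.19 and -0.52 to -0.11 for the Fbn1 probe sets. The Fbn1 value of 0.19, without animal 5, is the 1 change of sign among the members. Mfap4 without animal 4 is the 1 that passed the adjusted threshold, in the fit that called 241 probe sets. The microfibril list's median ran from -0.021 to 0.12. The cause of these shifts was not tested. The dimmer Lox probe set was not tested under the filter at the 60th percentile. Low signal limits Eln and that probe set most.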

Other observations

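Several genes of elastic tissue were too dim for the filter and entered no comparison. Fbn2, the fibrillin of developing tissue, ran from 2 to 7.3 over the 6 libraries and Emilin1, a glycoprotein of elastic fibres, from 2.8 to 17.7. The elastases Mmp7 and Mmp12 ran from 1.5 to 4 and from 7.2 to 42.5.

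Of 28 such probe sets of the pathway lists, 1 was without overlap and higher ipsilaterally and 2 were without overlap and lower. Among tested probe sets the shares were 4.74% and 5.78%, so no result is read from these counts. The 1 that was higher did not exceed the filter's intensity. A pair of the probe sets without overlap belonged to the minor fibrillar collagen Col11a1. They had opposite directions and were noticed after their values were seen. On 1384211_at it was at 3.23 ± 2.77 contralaterally and 13.0 ± 1.64 ipsilaterally, and on 1384931_at at 8.27 ± 1.90 and 2.07 ± 1.12 (SD, n = 3).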
